A study of Bos taurus with 40 samples.

Results

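Linker histones were described in follicle cells and oocytes of cattle (Bos taurus) through every row of the deposited RNA count tables whose name starts with H1F or HIST1H1. The rule found 9 of 59051 rows, the same 9 in each of the 4 tables, and 8 are described: H1FOO, HIST1H1A, HIST1H1B, HIST1H1C, HIST1H1D, HIST1H1E, H1FX and H1FNT. A RefSeq gene table matched 4 of these 8 names and lists H1FOO as H1-8, HIST1H1C as H1-2, HIST1H1D as H1-3 and HIST1H1E as H1-12. The rule reads the row names alone, and it was chosen with earlier results of these data known.

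A linker histone binds the DNA where it enters and leaves the nucleosome and helps to pack nucleosomes into denser chromatin. The HIST1H1 genes are transcribed mostly while DNA is replicated, and their messages normally end in a stem-loop instead of a poly(A) tail, whereas H1FX is made outside replication as well. H1FOO is the linker histone of the growing and mature oocyte, and in mammals it is replaced by somatic forms as the embryo develops, while H1FNT is known from spermatids in the mouse.

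The samples came from follicles. Granulosa cells, which line the follicle, were taken follicle by follicle, and the matching cumulus-oocyte complex was then matured in vitro before a biopsy of the ooplasm, the cumulus cells around the oocyte and the first polar body were collected. The oocytes were grouped by whether they went on to the blastocyst stage or stopped at cleavage, here called the blastocyst and the cleavage group. Each group had 4 RNA libraries from granulosa cells, 4 from cumulus cells and 4 from ooplasm biopsies, and a further set held 4 ooplasm biopsies with 4 whole oocytes of the same 4 numbers, whose fate the labels do not give. Granulosa and biopsy libraries of the fate groups carry follicle labels, while cumulus libraries carry none and cannot be tied to single follicles here. All groups are labelled diploid, no treatment other than maturation in vitro is named, and neither breed nor age is stated. The polar bodies, measured by bisulfite sequencing, were not analysed here. No source used here says that the libraries of a group came from separate animals, and the p-values therefore speak only of the spread among the libraries, which may be technical.

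Total counts per library ran from 9875705 to 17668550 for granulosa cells, from 7964591 to 9592127 for cumulus cells, from 16804281 to 22557007 for the biopsies of the fate groups and from 13442089 to 23790073 for the matched set. Levels are given in CPM, the count of a row per 1000000 counts, with counts divided by the library total after TMM scaling within a table, and they are not per length, so each gene is compared with itself across samples and not with another gene. The tables were not scaled together, so ratios of CPM between tables also rest on their separate scalings. Cell type coincides with the deposited table and, for granulosa cells, with collection before maturation, so these 3 cannot be told apart. In bulk samples such as these, more cells of a kind and more RNA per cell cannot be told apart either. The labelled cell types could be checked against few markers, which were looked up by symbol alone. Of 27 listed oocyte markers 3 had a row under their symbol (TCL1B, RNF17 and MORC1). For granulosa and cumulus markers this was 0 of 22, for theca 0 of 8 and for blood 0 of 8. Rows under other identifiers were not searched for them. The oocyte markers stood at 19.1 to 81.6 CPM in the biopsies of the fate groups and at 0 to 0.314 CPM in cumulus cells, but RNF17 and MORC1 reached 54.6 and 80.1 CPM in granulosa libraries labelled blastocyst, which is taken up below with H1FOO.

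The counts of the 8 rows were made up differently in ooplasm and in granulosa cells. H1FOO gave 77.2% ± 5.63 (SD, n = 4) of these counts in blastocyst biopsies and 67.9% ± 3.47 in cleavage biopsies, and HIST1H1A gave 12.9% ± 3.43 and 16.7% ± 1.39. In granulosa cells HIST1H1D gave 36.5% ± 14.8 in the blastocyst and 47.8% ± 6.68 in the cleavage group, and the share of H1FOO ran from 2.41% to 58.4% over the blastocyst libraries, highest in B20. These shares are of counts and not per length, so a longer transcript weighs more and the genes are not ranked by them. Core histone rows, which build the nucleosome itself, made up 0.0753% to 0.597% of a granulosa library, 0.219% to 0.310% of a biopsy or oocyte library and 0.136% to 0.156% of a cumulus library.

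H1FOO, the oocyte linker histone, was measured first. In the blastocyst biopsies B20, B21, D24 and D27 it stood at 918, 1312, 879 and 736 CPM. In the cleavage biopsies B14, B23, D10 and D29 it stood at 720.0, 1018, 1529 and 1308 CPM. Every biopsy of the fate groups was therefore at 720.0 CPM or more, and the fate groups overlapped. In cumulus cells 1 count was found in 1 of 8 libraries, and the other 7 had none, where 3 counts, the limit that a count of 0 allows, would be 0.314 to 0.382 CPM. The biopsies held 159962 H1FOO counts against that 1 count, a ratio of 72280 relative to library totals with a 95% interval for counting error of 12973 to 2854910.

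Granulosa cells held more H1FOO than cumulus cells and far less than ooplasm. The blastocyst granulosa libraries B20, B21, D24 and D27 had 22.3, 9.31, 5.80 and 14.2 CPM. The cleavage granulosa libraries B14, B23, D10 and D29 had 0.460, 6.74, 0.302 and 0.562 CPM. All 4 blastocyst libraries thus lay above 3 of the 4 cleavage libraries, and the groups overlapped because of B23. As a percent of the biopsy from the same follicle, granulosa H1FOO was 2.43 in B20, 0.709 in B21, 0.660 in D24 and 1.93 in D27, and 0.0639 in B14, 0.662 in B23, 0.0198 in D10 and 0.0430 in D29. Biopsies exceeded granulosa cells by a log2 fold change of 8.30 (SE 0.63, edgeR quasi-likelihood adjusted p = 1.9e-09), and cumulus cells had 1 count against 887 in granulosa cells, a ratio of 524 in favour of granulosa cells with a counting interval of 93.9 to 20737.

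HIST1H1A, of the replication-dependent HIST1H1 genes, followed the same order. In biopsies it stood at 155 ± 35.9 CPM in the blastocyst and 276 ± 58.2 CPM in the cleavage group (SD, n = 4), in granulosa cells at 1.93 ± 3.48 and 1.10 ± 1.11 CPM, and in all 8 cumulus libraries it had no count. The granulosa mean of the blastocyst group came from D24 at 7.14 CPM, the other 3 libraries having 0.0660 to 0.423 CPM. Biopsies exceeded granulosa cells by a log2 fold change of 7.75 (SE 0.85, edgeR adjusted p = 2.53e-07). They held 32841 counts against 0 in cumulus cells, which is at least 624-fold higher with cumulus cells set to 3 counts per library.

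**Figure D1:**
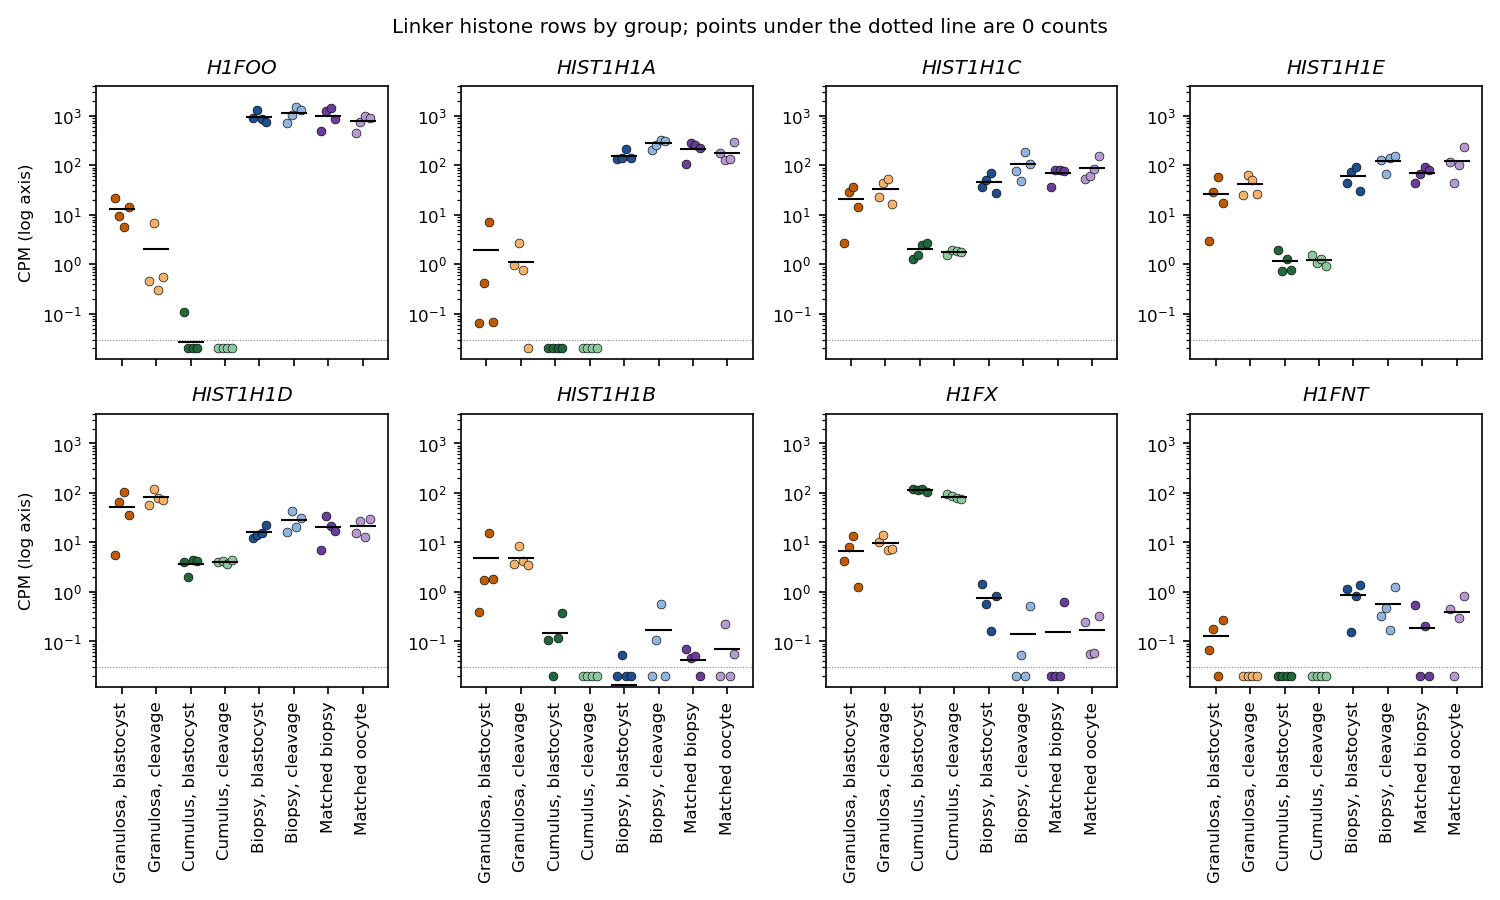
Each panel is 1 linker histone row, with CPM on a log axis for the 4 libraries (points) and the mean (bar) of each of the 8 groups; points under the dotted line had no count. H1FOO and HIST1H1A are at 108 CPM or more in every biopsy and oocyte and at 22.3 CPM or less in every granulosa and cumulus library, H1FX is highest in cumulus cells, and HIST1H1B is seen mainly in granulosa cells.

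Of the other replication-dependent genes, HIST1H1C and HIST1H1E rose in ooplasm, and HIST1H1D and HIST1H1B were highest in granulosa cells. HIST1H1C stood at 76.0 ± 52.5 CPM in the 8 biopsies, 27.3 ± 16.4 in the 8 granulosa and 1.89 ± 0.463 in the 8 cumulus libraries (SD, n = 8). HIST1H1E stood at 90.5 ± 44.9, 34.1 ± 21.2 and 1.19 ± 0.415 CPM in the same order. For HIST1H1C and HIST1H1E the highest cumulus values were 2.68 and 1.94 CPM. The lowest granulosa values, both in B20 and from a table scaled separately, were 2.71 and 2.90 CPM. HIST1H1D had the reverse order between ooplasm and granulosa cells, at 22.04 ± 10.4 CPM in biopsies, 67.7 ± 36.9 in granulosa and 3.88 ± 0.787 in cumulus cells. HIST1H1B had 565 counts over the 8 granulosa libraries at 4.88 ± 4.83 CPM, 13 counts over 8 biopsies and 5 over 8 cumulus libraries. Reads of these similar genes can be split between copies, and how such reads were counted is not stated, so single members among HIST1H1C, HIST1H1D and HIST1H1E are uncertain.

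The replication-independent H1FX had the opposite order, with cumulus cells highest. It stood at 99.7 ± 18.5 CPM in cumulus, 8.23 ± 4.39 in granulosa cells and 0.453 ± 0.515 in biopsies (SD, n = 8). No granulosa library exceeded 14.3 CPM and no cumulus library was under 76.1 CPM. H1FNT was near its limit of detection, with 111 counts over 8 biopsies, 8 over 8 granulosa libraries and 0 over 8 cumulus libraries. The spermatid linker histone HILS1, whose name falls outside the rule, had a row too and did not exceed 0.619 CPM in any library.

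In the test between ooplasm biopsies and granulosa cells, 8 of 8 linker histone rows passed (edgeR adjusted p under 0.05), 5 higher and 3 lower in biopsies, where 58.2% of 28229 rows passed, 30.9% higher and 27.3% lower. Rows near 0 in a cell type, such as H1FNT with 8 granulosa counts and HIST1H1B with 13 biopsy counts, passed the filter on low counts only through the other. The direction of such rows was set in advance. Besides H1FOO and HIST1H1A, H1FNT rose by a log2 fold change of 4.90, HIST1H1C by 1.98 and HIST1H1E by 1.94. HIST1H1B fell by 5.81, H1FX by 3.99 and HIST1H1D by 1.07 on the log2 scale. The call of HIST1H1D (SE 0.40, edgeR adjusted p = 0.0291) did not hold with the follicle label as a block (-0.83, adjusted p = 0.0923), nor without granulosa library B21 (-1.0, adjusted p = 0.0536) or D24 (-0.79, adjusted p = 0.0946). The median log2 fold change was 1.96 over the 8 linker histone rows and -0.02 over all rows tested.

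Against cumulus cells, 7 of 7 tested rows passed, 6 higher and 1 lower in biopsies, beside 84.4% of all 23010 rows, 50.9% higher and 33.5% lower. H1FOO, HIST1H1A and H1FNT, with 1, 0 and 0 cumulus counts, passed the filter on low counts only through the biopsies. Their direction was thus set in advance, and they add nothing to the count of rows higher in biopsies. HIST1H1E rose by a log2 fold change of 6.64 (SE 0.32), HIST1H1C by 5.70 (SE 0.32) and HIST1H1D by 2.95 (SE 0.27). H1FX fell by 7.66 (SE 0.51), with an edgeR adjusted p below that of HIST1H1D, 2.89e-08. HIST1H1B was too low to be tested, and H1FNT was at least 2.11-fold higher in biopsies with cumulus cells at 3 counts per library. With HIST1H1A and H1FNT set to these bounds, the median over the 7 rows was 5.70, beside 0.83 over all rows.

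Between the somatic cells, 6 of 6 tested rows passed, 1 higher and 5 lower in cumulus than in granulosa cells, where 72.7% of 21929 rows passed, 26.3% higher and 46.5% lower. Of the 5, H1FOO and HIST1H1B, with 1 and 5 cumulus counts, passed the filter on low counts only through granulosa cells, so their direction was set in advance. H1FX rose by a log2 fold change of 3.76 (SE 0.30, edgeR adjusted p = 2.94e-08). HIST1H1E fell by 4.61 (SE 0.45), HIST1H1D by 3.92 (SE 0.39), HIST1H1C by 3.64 (SE 0.40) and HIST1H1B by 6.72 (SE 0.97) on the log2 scale. H1FOO also fell, and HIST1H1A, not tested here, had 180 granulosa counts against 0, at least 4.09-fold higher in granulosa cells. The median over the 6 rows was -4.26, beside -0.55 over all rows. With library totals in place of TMM scaling, the median over all rows was -0.59 in the first, 0.33 in the second and -0.65 in the third of these tests, and 0.70 in place of 0.10 for fate in granulosa cells.

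The fate contrast was tested in each cell type, and the edgeR test called no linker histone row in any of them. In granulosa cells 0 of 6 tested rows passed, where 21.6% of 22934 rows passed, 21.3% higher and 0.349% lower in the blastocyst group. At an unadjusted p under 0.05 the count was 1, H1FOO, beside 36.8% of all rows, and the DESeq2 Wald test called 1, beside 37% of the 30917 rows to which it gave an adjusted p. H1FOO stood at 12.9 ± 7.15 CPM against 2.02 ± 3.15 CPM (SD, n = 4), a log2 fold change of 2.69 (SE 1.03, edgeR adjusted p = 0.0877). It passed with the DESeq2 Wald test (3.25, adjusted p = 0.00532), with library totals only (3.48, edgeR adjusted p = 0.0366), with the letter of the follicle label as a covariate (3.26, adjusted p = 0.0434) and without cleavage library B23 (4.77, adjusted p = 0.00133). It did not pass with DESeq2 size factors (3.27, edgeR adjusted p = 0.0546), with no filter on low counts (2.44, adjusted p = 0.0753) or without blastocyst libraries B20 and D27 (2.08, adjusted p = 0.367).

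Of the 3 oocyte markers, RNF17 and MORC1 were higher in every blastocyst than in every cleavage granulosa library, and TCL1B was not. RNF17, a germ cell protein of the piRNA pathway, stood at 54.6, 17.3, 11.5 and 37.1 CPM in B20, B21, D24 and D27, against 1.51, 5.01, 2.87 and 1.05 CPM in B14, B23, D10 and D29. MORC1, a germ cell silencing factor, stood at 80.1, 13.3, 27.8 and 43.0 CPM against 0.329, 3.64, 3.48 and 0.141 CPM. Over all rows tested, the fate groups of granulosa cells did not overlap in 38.4%. TCL1B, an oocyte transcript at 20.6 to 81.6 CPM in biopsies, was at 0 to 1.31 CPM in the blastocyst and 0 to 0.151 CPM in the cleavage granulosa libraries, with no count in 4 of the 8. Granulosa RNF17 and MORC1 in B20 were above the 49.8 and 49.2 CPM that their highest blastocyst biopsies reached, so there they did not set ooplasm apart from granulosa cells. H1FOO in granulosa library B20 was at 2.43% of its biopsy. The blastocyst granulosa libraries also held 26373 to 28629 rows with 5 counts or more, against 18065 to 22039 in the cleavage group. The part of oocyte RNA, of library make-up and of fate in the H1FOO difference was not tested.

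The somatic linker histones of granulosa cells spread widely between libraries of the same fate. HIST1H1D stood at 5.54, 67.0, 105 and 35.5 CPM in B20, B21, D24 and D27, and at 56.4, 122, 78.8 and 71.3 CPM in B14, B23, D10 and D29. HIST1H1E stood at 2.90, 29.1, 57.2 and 17.5 CPM against 25.5, 65.2, 49.4 and 26.1 CPM. B20 was the lowest of the 8 libraries for both and D24 the highest of the blastocyst group. HIST1H1C went from 2.71 CPM in B20 to 37.0 CPM in D24 and HIST1H1B from 0.396 to 15.2 CPM. Over the 8 granulosa libraries, the log2 level of HIST1H1E correlated with HIST1H1D at r = 0.983 and with HIST1H1C at 0.975, as a description of libraries that share depth and scaling. B20 and D27 stood apart in their make-up, with a TMM-scaled total of 1.53 and 1.34 times the count total, beside 0.757 to 1.04 in the other 6. Fitted log2 fold changes of the 5 somatic rows tested, H1FX included, ran from -0.69 for HIST1H1C to -0.04 for HIST1H1B, with SE of 0.68 to 0.99, and without B20 and D27 they ran from 0.04 to 0.84 with no call among any rows.

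**Figure D2:**
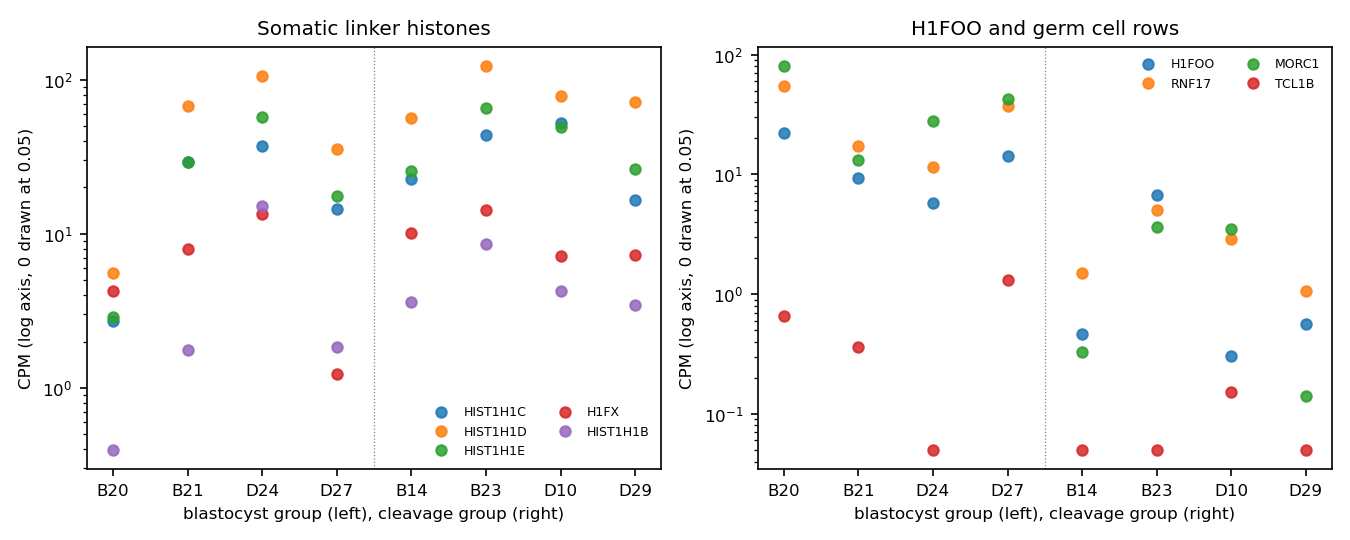
Points give CPM on a log axis in the 4 blastocyst (left of the dotted line) and 4 cleavage granulosa libraries, for 5 somatic linker histone rows in the left panel and for H1FOO with the oocyte markers RNF17, MORC1 and TCL1B in the right panel. B20 is lowest for HIST1H1D at 5.54 CPM and highest for H1FOO at 22.3 CPM, and cleavage library B23 is the 1 with H1FOO at 6.74 CPM beside 0.302 to 0.562 CPM in the other 3.

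In cumulus cells the fate groups of 1 of the 4 linker histone rows tested, H1FX, did not overlap, beside 8.92% of all 15410 rows tested. It stood at 119.7, 117, 119.6 and 107 CPM in the 4 blastocyst libraries and at 93.2, 87.2, 77.7 and 76.1 CPM in the 4 cleavage libraries. The lowest blastocyst library thus lay above the highest cleavage library, and the means differed 1.39-fold. The log2 fold change of 0.47 (SE 0.08) had an edgeR adjusted p of 0.0751, and 0% of the 15410 rows tested passed, with 14.6% under 0.05 before adjustment. Among 4 linker histone rows tested the edgeR count was 0, the count at an unadjusted p under 0.05 was 1, and 1, H1FX, passed with the DESeq2 Wald test (adjusted p = 0.000109), which called 2.14% of the 7427 rows to which it gave an adjusted p. H1FX passed also with no filter on low counts (edgeR adjusted p = 0.000479), where 0.696% of 26278 rows passed, and leaving out single libraries moved its edgeR adjusted p between 0.0566 and 0.265. HIST1H1C, HIST1H1D and HIST1H1E were at 4.52 CPM or less in every cumulus library, with log2 fold changes of 0.14, -0.14 and -0.01.

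In ooplasm biopsies 0 of 7 tested rows passed, 3 had an unadjusted p under 0.05 and 0 passed with DESeq2, which called 0.771% of all rows. Over all 21174 rows the edgeR test called 0%, and 4.8% were under 0.05 before adjustment. The 3 were HIST1H1A, HIST1H1C and HIST1H1E, all with lower means in the blastocyst group. HIST1H1A stood at 132, 139, 209 and 141 CPM in B20, B21, D24 and D27 and at 203, 256, 328 and 317 CPM in B14, B23, D10 and D29. The groups overlapped only through D24 and B14, and the log2 fold change was -0.83 (SE 0.24, edgeR adjusted p = 0.913). HIST1H1C stood at 36.2, 51.2, 69.2 and 27.5 CPM against 77.0, 49.2, 189.7 and 108 CPM (log2 fold change -1.20, SE 0.41, adjusted p = 0.982). HIST1H1E stood at 44.8, 74.0, 90.8 and 29.8 CPM against 127, 66.7, 139 and 153 CPM (log2 fold change -1.02, SE 0.37, adjusted p = 0.990). For both, cleavage biopsy B23 lay within the blastocyst range and the other 3 cleavage biopsies lay above it.

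HIST1H1D stood at 16.1 ± 4.26 against 28.0 ± 11.8 CPM, with a log2 fold change of -0.79 (SE 0.41). H1FOO stood at 961 ± 247 against 1144 ± 352 CPM, with a log2 fold change of -0.25 (SE 0.26), and both had overlapping groups. H1FX had 28, 11, 3 and 17 counts in the blastocyst biopsies and 0, 1, 0 and 10 in the cleavage biopsies, with a log2 fold change of 2.35 (SE 1.47, edgeR adjusted p = 1 after rounding).

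**Figure D3:**
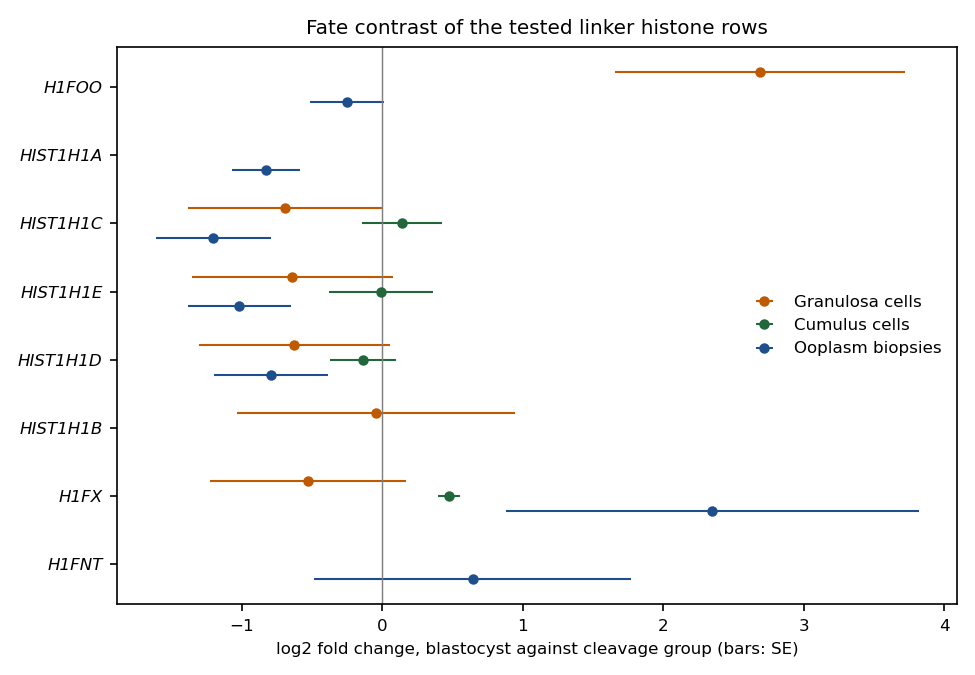
Points give the log2 fold change of the blastocyst against the cleavage group with its SE (bars) for each linker histone row tested in the 3 cell types. No row passed the edgeR test at an adjusted p of 0.05; the short bar of H1FX in cumulus cells lies at 0.47 and the long bar of H1FOO in granulosa cells at 2.69.

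Whether the fate contrast differed between cell types was tested with an interaction term. Between granulosa cells and biopsies 0 of 8 linker histone rows passed, beside 6.9% of 28229 rows, with 1 unadjusted p under 0.05 (26.1% of all rows) and 1 DESeq2 call (18.3% of all rows). The H1FOO contrast was 2.90 higher in granulosa cells on the log2 scale (SE 0.95, edgeR adjusted p = 0.0686), and it passed with the follicle label as a block (3.72, adjusted p = 0.0384), without biopsy B14 (3.46, adjusted p = 0.0464) and without granulosa library B23 (5.27, adjusted p = 0.000242). The H1FX contrast of granulosa cells minus that of biopsies was -3.02 (SE 1.51, adjusted p = 0.211), and without cleavage biopsy D29, which held 10 of the 11 counts of its group, it was -5.45 with an adjusted p of 0.0346. Between cumulus cells and biopsies 0 of 7 rows passed, beside 0.013% of 23010 rows, with 1 unadjusted p under 0.05 (7.05% of all rows) and 0 DESeq2 calls (0.714%). Of these 7, HIST1H1A and H1FNT had no count in any cumulus library. Their contrast could not be estimated (SE 1592 and 1273), so they could not pass. H1FOO had 1 cumulus count, on which its contrast rests against either other cell type. Between cumulus and granulosa cells 0 of 6 passed, beside 10.2% of 21929 rows, with 0 at an unadjusted p under 0.05 (28.6% of all rows) and 0 DESeq2 calls (21.8%). In these the H1FX contrast differed by -1.89 (SE 0.91, adjusted p = 0.725) and by 0.83 (SE 0.55, adjusted p = 0.301), so that the contrast of cumulus cells was not shown to differ from that of the other cells.

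The matched set places a biopsy beside the whole oocyte of the same number. Of 5 tested rows 0 passed with edgeR, 0 had an unadjusted p under 0.05 and 0 passed with DESeq2, beside 0% of all 18540 rows called by edgeR, 5.54% under 0.05 before adjustment and 0.813% called by DESeq2. H1FOO stood at 500.3, 1229.8, 1426 and 846 CPM in biopsies 2, 3, 6 and 16 and at 456, 747, 991 and 902 CPM in the oocytes of the same numbers. The biopsy was higher in 3 of 4 pairs, with biopsy to oocyte ratios of 1.10, 1.65, 1.44 and 0.937, and the log2 fold change was 0.37 (SE 0.36, edgeR adjusted p = 0.977). HIST1H1A had ratios of 0.620, 2.20, 1.95 and 0.759, higher in the biopsy of pairs 3 and 6 and in the oocyte of pairs 2 and 16. HIST1H1E had ratios of 0.374, 1.5, 0.925 and 0.345, with 234 CPM in oocyte 16 against 80.7 CPM in its biopsy, and a log2 fold change of -0.80 (SE 0.43, adjusted p = 0.910). HIST1H1C and HIST1H1D had log2 fold changes of -0.35 and -0.08, each smaller than its SE of 0.37 and 0.48. A biopsy could thus be from 0.345 to 2.20 times its oocyte for a single linker histone among these 5, while H1FOO kept within 0.937 to 1.65 times.

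**Figure D4:**
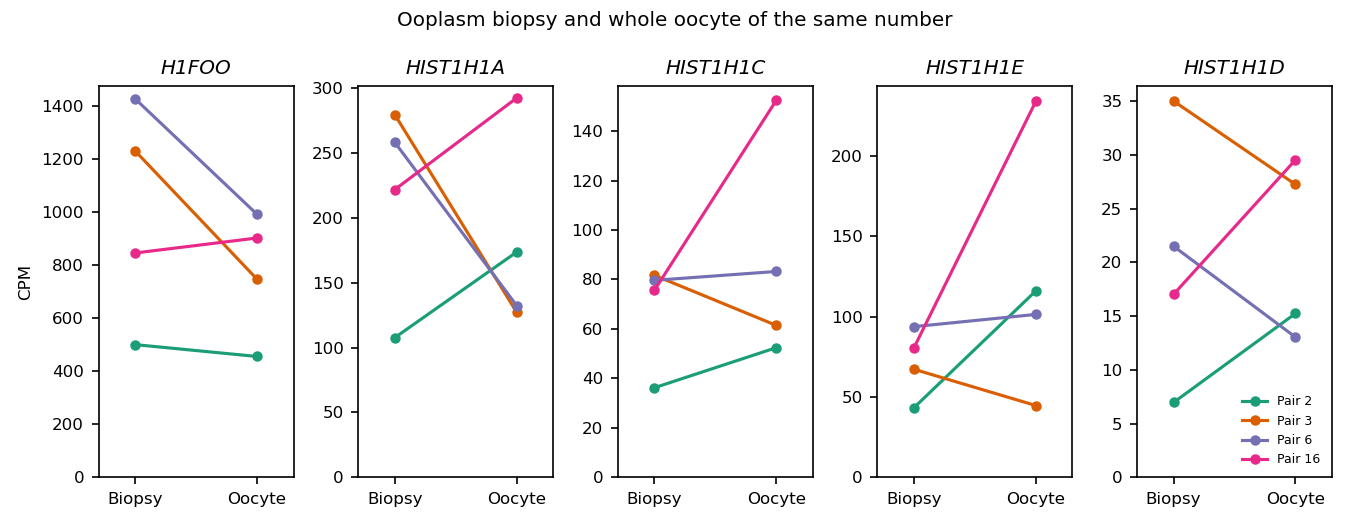
Lines join the CPM of the ooplasm biopsy and the whole oocyte of each of 4 pairs, on a linear axis from 0 for each of the 5 tested linker histone rows. H1FOO lies higher in the biopsy of pairs 2, 3 and 6, and HIST1H1E in pair 16 goes from 80.7 CPM in the biopsy to 234 CPM in the oocyte.

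Across the 8 groups, the 4 groups of biopsies and oocytes overlapped with their neighbours in order of mean for H1FOO, from 1144 CPM in cleavage biopsies over 1000.5 CPM in matched biopsies and 961 CPM in blastocyst biopsies to 774 CPM in oocytes. The next group in that order, blastocyst granulosa cells at 12.9 CPM, did not overlap with the oocytes. For H1FX the order ran from blastocyst cumulus (116 CPM) over cleavage cumulus (83.5 CPM) to cleavage granulosa cells (9.73 CPM), with no overlap at either step, and all lower neighbours overlapped. The first step is the fate contrast in cumulus cells, where 8.92% of all rows tested did not overlap. The share of all rows without overlap between cell types was not counted, so these separations are not set against it.

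Core histones, which the linker histones sit upon, were counted over 35 rows. Of 31 tested between biopsies and granulosa cells, 11 were higher and 12 lower in biopsies, with a median log2 fold change of 0.22. Over all rows 30.9% were higher and 27.3% lower, with a median of -0.02. HIST1H2AH, an H2A gene, rose by a log2 fold change of 6.32 to 112 ± 46.2 CPM (SD, n = 8), and the replication-independent variant H2AFZ fell by 7.82 from 1077 ± 547 to 3.25 ± 3.51 CPM. Against cumulus cells 17 of 25 were higher and 7 lower in biopsies (median 2.62), beside 50.9% and 33.5% of all rows (median 0.83). Rows such as HIST1H3I, with 0 cumulus counts, and HIST2H2BF, with 1, passed the filter on low counts only through the biopsies. Between cumulus and granulosa cells 2 of 26, H2AFX and HIST1H2BD, were higher and 18 lower in cumulus cells (median -1.98). Over all rows 26.3% were higher and 46.5% lower (median -0.55). HIST1H2AK and HIST2H2AA4 had nearly the same counts, 8466 and 8477 over the 8 biopsies, so their reads may be shared. In the fate contrasts 0 of 29 core histone rows passed in granulosa cells, 0 of 15 in cumulus cells and 0 of 24 in biopsies, and in the matched set 0 of 23. At an unadjusted p under 0.05 the counts were 1, 2, 2 and 2, and DESeq2 called 0 in each. Over all rows, the edgeR test called 21.6%, 0%, 0% and 0% in the same order. Before adjustment 36.8%, 14.6%, 4.8% and 5.54% were under 0.05, and DESeq2 called 37%, 2.14%, 0.771% and 0.813%.

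Of 40 genes listed as possible partners of linker histones, 3 had a row under their symbol, and none of these passed in a fate contrast or in the matched set. HMGN2, which competes with linker histones for nucleosomes, was higher in biopsies than in granulosa (log2 fold change 0.88) and cumulus cells (2.25) and lower in cumulus than in granulosa cells (-1.28). HMGN3, of the same family, was higher in biopsies than in cumulus cells (1.60) and lower in cumulus than in granulosa cells (-1.69), and its value between biopsies and granulosa cells was -0.18 (edgeR adjusted p = 0.664). TPR, a nuclear pore protein, was higher in biopsies than in granulosa (2.25) and cumulus cells (1.84) and higher in cumulus than in granulosa cells (0.48).

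Rows with the most similar pattern were sought among 857 rows that carry a symbol and have a mean of 1 CPM or more, by Pearson's r of log2(CPM + 1) over the 32 libraries. These libraries fall into cell types, and r mostly follows them. H1FOO was most like TDRD15 (r = 0.987), ADAD1 (0.979), CCDC173 (0.978), LRMP (0.977) and C20H5orf58 (0.975). HIST1H1A was most like the core histone HIST1H2AH (0.992), then BCL2L10, a BCL2 family gene (0.985), CNTD2 (0.981), FAM161A (0.980) and FAM46B (0.978). HIST1H1C and HIST1H1E were most like each other (0.984) and next like the H2A rows HIST1H2AK and HIST2H2AA4 (0.956 each for HIST1H1C, 0.954 each for HIST1H1E). H1FX was most like TLNRD1 (0.974), AES, a transcriptional corepressor (0.973), and TMEM203 (0.972). HIST1H1D and HIST1H1B had weaker matches, with ATP5MD (0.884) and OSCAR (0.896) first.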

How the data were processed

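RNA was measured in 8 groups of 4 libraries, 2 fate groups for each of 3 cell types and the matched biopsies and oocytes. Per the labels' protocols, poly(A) RNA was amplified with a SMART-Seq HT kit and libraries were made with a Nextera XT kit. The tools Trim Galore, cutadapt, STAR and featureCounts are named per the submitters' processing notes. No source used here gives their versions, settings, strand use or genome build, so no coordinates are given, and no sequence is shown. The authors deposited raw whole-number counts per row in 4 tables of 59051 rows, which were used as deposited. The rule found 9 rows, and 1 is not reported here.

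In R 4.3.3 with edgeR 4.0.16, each comparison was fitted over all rows that passed filterByExpr, with TMM scaling and a robust quasi-likelihood F test. Calls needed a p under 0.05 after Benjamini-Hochberg adjustment. DESeq2 1.42.0 (Wald test), other scalings, no filter, single libraries left out, label letter and pairing blocks were the alternatives. The tests were tried on simulated data. CPM use the TMM-scaled total of the rows kept by the filter, errors are SD over libraries, and SE is that of the log2 fold change. Groups at 0 were set to 3 counts per library. Intervals and floors cover counting error only. Granulosa and biopsy libraries share follicle labels, and the series text ties granulosa cells to the oocyte of their follicle, so these pair them. Same-label deviations correlated at only -0.0235 to 0.110 over rows, beside -0.159 to 0.144 between different labels. Numbers of the matched set were taken as pairs, with correlations of 0.186 to 0.305 in the 4 pairs and -0.338 to 0.229 between different numbers. Biopsy 6 correlated more with oocyte 16 (0.221) than with oocyte 6 (0.186). Biopsy 16 likewise correlated more with oocyte 6 (0.229) than with oocyte 16 (0.192), so the pairs rest on the labels. Cumulus columns were matched to fate groups, not to single titles. Libraries of a group differed beyond counting noise in every pair (lowest chi-square over its degrees of freedom 4.70). This value was 4.70 to 11.6 between cumulus libraries and 44.6 to 341 between libraries of the other groups. The fate contrasts of cumulus cells rest on this smaller spread, whose source was not tested.

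The other 8 linker histone rows are named, with the 5 most similar rows each or the first of them, core histones past the threshold as examples and every partner and marker found under its symbol. The members, lists and rule were chosen with earlier results of these data known. A name lookup used RefSeq's ARS-UCD2.0 table. Tables and figures used Python 3.11.15 with pandas 2.3.3 and matplotlib 3.10.9.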

Additional observations from a re-analysis of the deposited data

Results flagged for a closer look

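Groups of 4 libraries were kept where the highest library had 10 counts or more of a linker histone row. Of 49 such groups, 8 held a library separated from the other 3 by more than Dixon's 95% critical share of the group's range. Some groups, such as H1FX in the matched biopsies, were kept only through the library then flagged. The 8 of 49 can therefore not be set against a chance rate. In granulosa cells, H1FOO stood at 6.74 CPM in cleavage library B23 beside 0.302 to 0.562 CPM, and HIST1H1B at 8.56 CPM in the same library beside 3.44 to 4.23 CPM. Blastocyst library D24 held HIST1H1A at 7.14 CPM beside 0.0660 to 0.423 CPM and HIST1H1B at 15.2 CPM beside 0.396 to 1.86 CPM. In ooplasm biopsies, D24 of the blastocyst group had HIST1H1A at 209 CPM beside 132 to 141 CPM, so both libraries of follicle D24 were the high ones for this gene. H1FX stood at 0.525 CPM in cleavage biopsy D29 beside 0 to 0.0526 CPM. In the matched biopsies, number 16 had H1FX at 0.616 CPM where the other 3 had no count, and number 2 had HIST1H1C at 36.3 CPM beside 75.6 to 81.7 CPM.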

How the results depend on the processing

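All calls between cell types kept their direction and side of the threshold in every alternative run that tested them, other than HIST1H1D between biopsies and granulosa cells. H1FNT between biopsies and cumulus cells was tested in only 13 of 16 runs with a single library left out, and passed in those. The log2 fold change of HIST1H1D with the follicle label as a replicate block was -0.83 (edgeR adjusted p = 0.0923). Over single libraries left out it ran from -1.28 to -0.79. The block changed no other call between biopsies and granulosa cells, and in the matched set, where pair number was the block, it called 0 rows as before. For fate in granulosa cells, H1FOO was 3.48 with library totals only, 3.25 with the DESeq2 Wald test and 3.26 with the label letter as a covariate, each past the threshold, and 2.25 to 4.77 over single libraries left out. The count of linker histone rows called was 1 in place of 0 in these settings, and 0 to 1 over libraries left out. The fate contrast of the interaction between granulosa cells and biopsies for H1FOO was 3.74 with library totals only, 3.25 with DESeq2 and 3.72 with the replicate block, with 1 linker histone row called in each, and 2.49 to 5.27 over libraries left out, while H1FX ran from -5.45 to -2.25 and the linker histone count from 0 to 1. H1FX in cumulus cells was 0.47 and past the threshold with no filter and with DESeq2, with 1 linker histone row called in each.

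Values that missed the threshold changed sign in some settings, and the cause was not tested. In granulosa cells without B20 and D27 these were H1FX (0.21), HIST1H1B (0.84), HIST1H1C (0.045), HIST1H1D (0.14) and HIST1H1E (0.13). With DESeq2 size factors HIST1H1B was 0.11 and with library totals 0.35. With library totals HIST1H1E was 0.0054 in cumulus cells and HIST1H1D 0.080 in the matched set. Over single libraries left out, HIST1H1B ran from -1.91 to 0.41 in granulosa cells, HIST1H1C from -0.027 to 0.31, HIST1H1D from -0.25 to 0.062 and HIST1H1E from -0.37 to 0.16 in cumulus cells, and HIST1H1C from -0.54 to 0.051 and HIST1H1D from -0.49 to 0.21 in the matched set.

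The background moved too. Rows called for fate in granulosa cells were 4964, 11431 with DESeq2, 0 without B20 and D27, and 2482 (without D27) to 8131 (without B23) over single libraries, with 3162 without B20. In cumulus cells they were 0, 183 with no filter, 159 with DESeq2 and 0 to 7 over single libraries, in biopsies 27 with no filter and 182 with DESeq2, and in the matched set 13 and 190. For the interaction of granulosa cells and biopsies they were 1948, 3783 with library totals, 1237 with no filter, 5649 with DESeq2, 1401 with the block and 443 (without granulosa B20) to 4955 (without granulosa B23) over single libraries. For cumulus cells and biopsies they were 3, 174 with DESeq2 and 0 to 26 over single libraries, and for cumulus and granulosa cells 2244, 5603 with DESeq2 and 685 to 5156 over single libraries, where 1 linker histone row was called without granulosa library D24 and 0 otherwise. DESeq2 tested all rows with any count.

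H1FNT, and H1FX and HIST1H1B in ooplasm, rest on few counts per library, which limits their fate contrasts. How far poly(A) libraries count stem-loop histone messages was not tested.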
